A study of Mus musculus with 221 samples.

Results

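Slc1a3, Slc1a2, Glul, Apoe, Clu, Mlc1, Ttyh1, Ndrg2, Aldoc and Mfge8 are 10 genes known from the astrocyte lineage, and they were taken by name from the 23244 features of a table of TPM values (the share of a transcript in its cell, corrected for transcript length). The table holds 221 single cells of the medial neocortex, taken at embryonic day 18.5 from mice of the strain C57BL/6J. The cells came from 2 pools, each of the tissue of 8 embryos, with 99 cells from pool 2 and the others from pool 1, and the labels name no treatment or mutation. Cells were isolated on a Fluidigm C1 chip and read over the full transcript length, 1 library per cell. All values of a cell add up to 1000000 TPM, and no value is 0: features without signal share the lowest value of their cell, called the floor here, which lay between 1.33 and 3.0 TPM. A gene counted as detected above that floor. All 10 genes passed the minimum of 10 cells with detection. Because a pool mixes embryos, the pool is the replicate, and every test below compares 2 pools per cell class.

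Radial glia act as stem cells in the embryonic cortex. They produce neurons directly or through intermediate progenitors, and around birth many of them turn to making astrocytes. Several genes used to recognise astrocytes are therefore already active in them. Slc1a3 (GLAST) and Slc1a2 (GLT-1) take up glutamate from the extracellular space and Glul, glutamine synthetase, converts it to glutamine. Apoe carries lipids and Clu is a secreted chaperone that also travels with lipoproteins. Mlc1 and Ttyh1 are membrane proteins, Aldoc is the brain isoform of the glycolytic enzyme aldolase, Mfge8 is a secreted protein that bridges phosphatidylserine on dying cells to phagocytes, and Ndrg2 is a cytoplasmic protein that marks astrocytes in the adult brain.

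The promoters of the 3 genes whose levels separated radial glia from neurons most plainly below, Aldoc, Mfge8 and Slc1a3, are printed because they had the largest differences among the 10. The letters are from RefSeq (GRCm38.p6) and end at the base before the first annotated start. They lie at chr11:78322823-78322967 on the plus strand, chr7:79149061-79149310 on the minus strand and chr15:8710808-8711057 on the minus strand. Capitals mark TGGGAA, the core that the Notch effector RBPJ binds, on either strand (TTCCCA on the other), and TTCNNNGAA, the STAT motif. These 2 motifs do not overlap here.
Aldoc: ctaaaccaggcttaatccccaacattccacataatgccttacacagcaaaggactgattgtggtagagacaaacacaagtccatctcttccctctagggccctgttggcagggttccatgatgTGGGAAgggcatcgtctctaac
Mfge8: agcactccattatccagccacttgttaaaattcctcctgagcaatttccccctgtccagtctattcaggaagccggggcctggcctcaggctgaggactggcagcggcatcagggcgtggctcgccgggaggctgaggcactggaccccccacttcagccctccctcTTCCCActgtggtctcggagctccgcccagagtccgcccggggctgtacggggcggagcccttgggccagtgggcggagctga
Slc1a3: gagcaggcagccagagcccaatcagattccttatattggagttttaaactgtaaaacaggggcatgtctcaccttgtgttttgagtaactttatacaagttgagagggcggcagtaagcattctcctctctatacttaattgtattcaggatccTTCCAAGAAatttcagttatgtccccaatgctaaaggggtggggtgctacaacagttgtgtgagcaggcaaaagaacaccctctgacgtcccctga

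A promoter entry was matched for 9 of the 10 genes, all but Clu. In the 250 bases before the RefSeq start, TGGGAA stood in 3 of the 9 (Aldoc, Mfge8 and Mlc1) against 21.5% of 27018 RefSeq promoters of the same length, and TTCNNNGAA stood in 1 of the 9 (Slc1a3) against 7.14%. The E-box CANNTG, searched on both strands like the others, stood in 6 of the 9 against 66.1%. These are matches of letters only. By the GENCODE annotation the windows of Mlc1, Ndrg2, Aldoc, Ttyh1 and Slc1a2 lie partly or wholly inside the gene, and the Aldoc promoter printed here was shortened to end before it. In the GENCODE annotation Aldoc spans positions 78322968 to 78327781 of chromosome 11, Mfge8 spans 79133768 to 79149060 of chromosome 7, and Slc1a3 spans 8634124 to 8710764 of chromosome 15.

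Cell classes were set from markers that exclude the 10 genes. A cell with Eomes and at least 3 intermediate progenitor markers was first set as intermediate progenitor-like, whatever its radial glia markers. A pool 1 cell and a pool 2 cell set this way had 8 radial glia markers beside 5 excitatory neuron markers. Among the other cells, radial glia-like ones had at least 4 of 8 markers (Pax6, Sox2, Sox9, Hes1, Hes5, Vim, Fabp7, Nes) and at least 2 more than of either neuronal list. This gave 15 cells, or 6.79% of 221 (exact 95% binomial interval 3.85 to 10.9%, counting error only), 7 in pool 1 and 8 in pool 2. All 8 markers were detected in 8 of them and 5 markers in 2 of them. The label of radial glia may be mixed in part. Neurod6, a transcription factor of excitatory neurons, reached 100 TPM in 8 of the 15 cells. Its signal was not particular to this class, because 217 of all 221 cells had detectable Neurod6. Even interneuron-like cells had it in 11 of 13 cases, with a maximum of 781 TPM. Whether Neurod6 marks a mixed identity in radial glia-like cells was not tested. A lead of exactly 2 markers was all that 5 of the 15 radial glia-like cells had. A further 15 cells, all unassigned, had radial glia markers as their largest or joint largest count. Their lead was under 2, and ties with a neuronal list were included. The other classes were 31 intermediate progenitor-like, 126 excitatory neuron-like and 13 interneuron-like cells, and 36 cells were unassigned (11.5% of pool 1 and 22.2% of pool 2). The median number of genes detected was 4641 in radial glia-like, 4338 in intermediate progenitor-like, 4034 in excitatory neuron-like and 3125 in interneuron-like cells, and the part of this difference in the results was not tested. Read numbers per cell are unknown.

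The 10 genes occurred together in radial glia-like cells. A radial glia-like cell had a median of 10 of them above the floor (range 3 to 10), and 8 of the 15 cells had all 10. The median was 3 in intermediate progenitor-like cells (range 0 to 9), 2 in excitatory neuron-like cells (range 0 to 6) and 2 in interneuron-like cells (range 0 to 3). No cell outside the radial glia-like class had all 10. Among the 17 cells of the table with at least 8 of the genes, 10 were radial glia-like, 4 intermediate progenitor-like and 3 unassigned. The 4 intermediate progenitor-like cells carried 5 to 8 radial glia markers beside 5 to 7 excitatory neuron markers. The 3 unassigned cells carried 6 to 8 radial glia markers beside 6 or 7 excitatory neuron markers. An unassigned cell of pool 2 among these 3 also had 7 interneuron markers and the most genes detected of the table (6727).

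**Figure D1:**
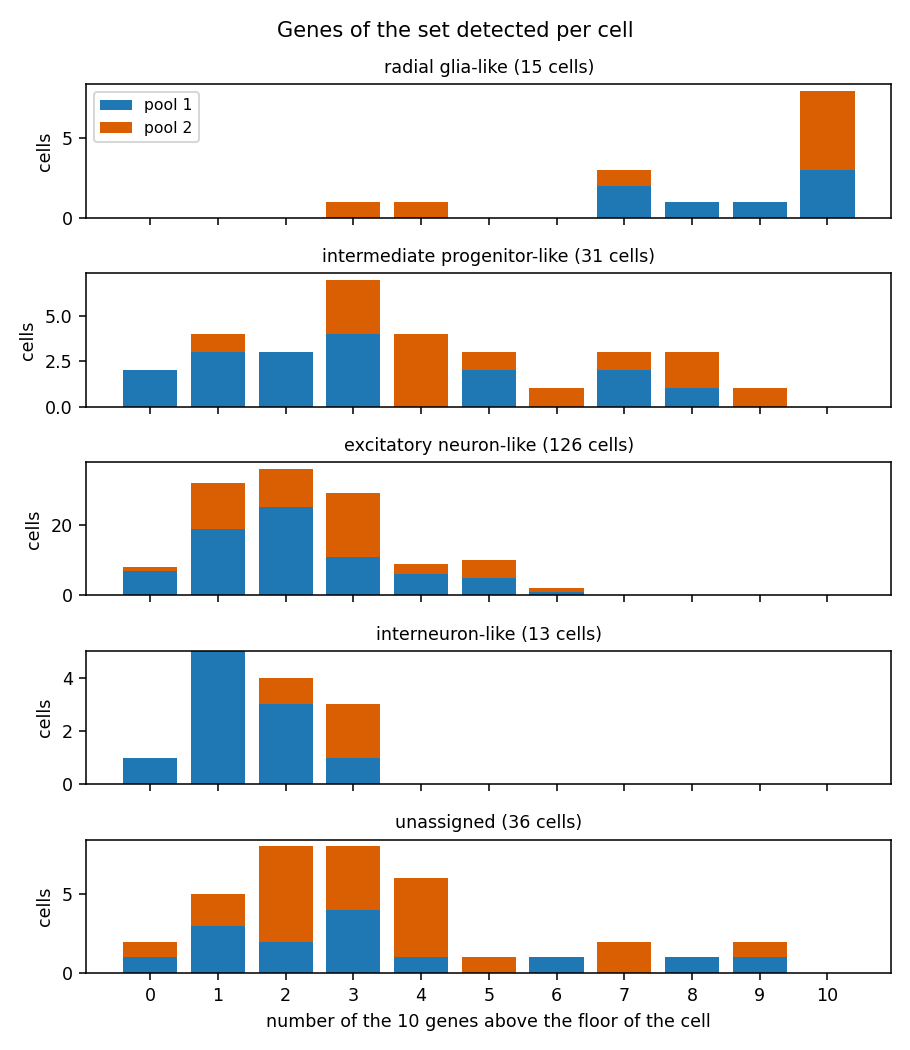
Number of cells (y axis) by the number of the 10 genes above the floor of the cell (x axis, 0 to 10), one panel per class, pool 1 in blue and pool 2 in orange. Radial glia-like cells pile up at 10 genes, while no excitatory neuron-like cell passes 6 and no interneuron-like cell passes 3.

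Against excitatory neuron-like cells, 9 of the 10 genes were called higher in radial glia-like cells and none lower. A call needed an adjusted p below 0.05 (limma on the mean log2(TPM + 1) of each class and pool, Benjamini-Hochberg adjustment over 10717 genes) and a log2 difference of at least 1. Of all genes tested 2.97% were called, 2.02% higher and 0.942% lower. The median log2 difference of the 10 genes was 4.62, beside -0.08 over all genes tested, and Aldoc ranked 1 and Mfge8 ranked 3 of 10717 by size of the increase. Slc1a2 alone was not called. The 9 differences rest on 4 profiles. Their SE and p also draw on the intermediate progenitor-like profiles, because all classes of the fit shared an estimate of the spread. The calls were fragile to the loss of an excitatory neuron-like profile. Without that of pool 1 or of pool 2, the median difference stayed at 4.75 and 4.67.

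**Figure D2:**
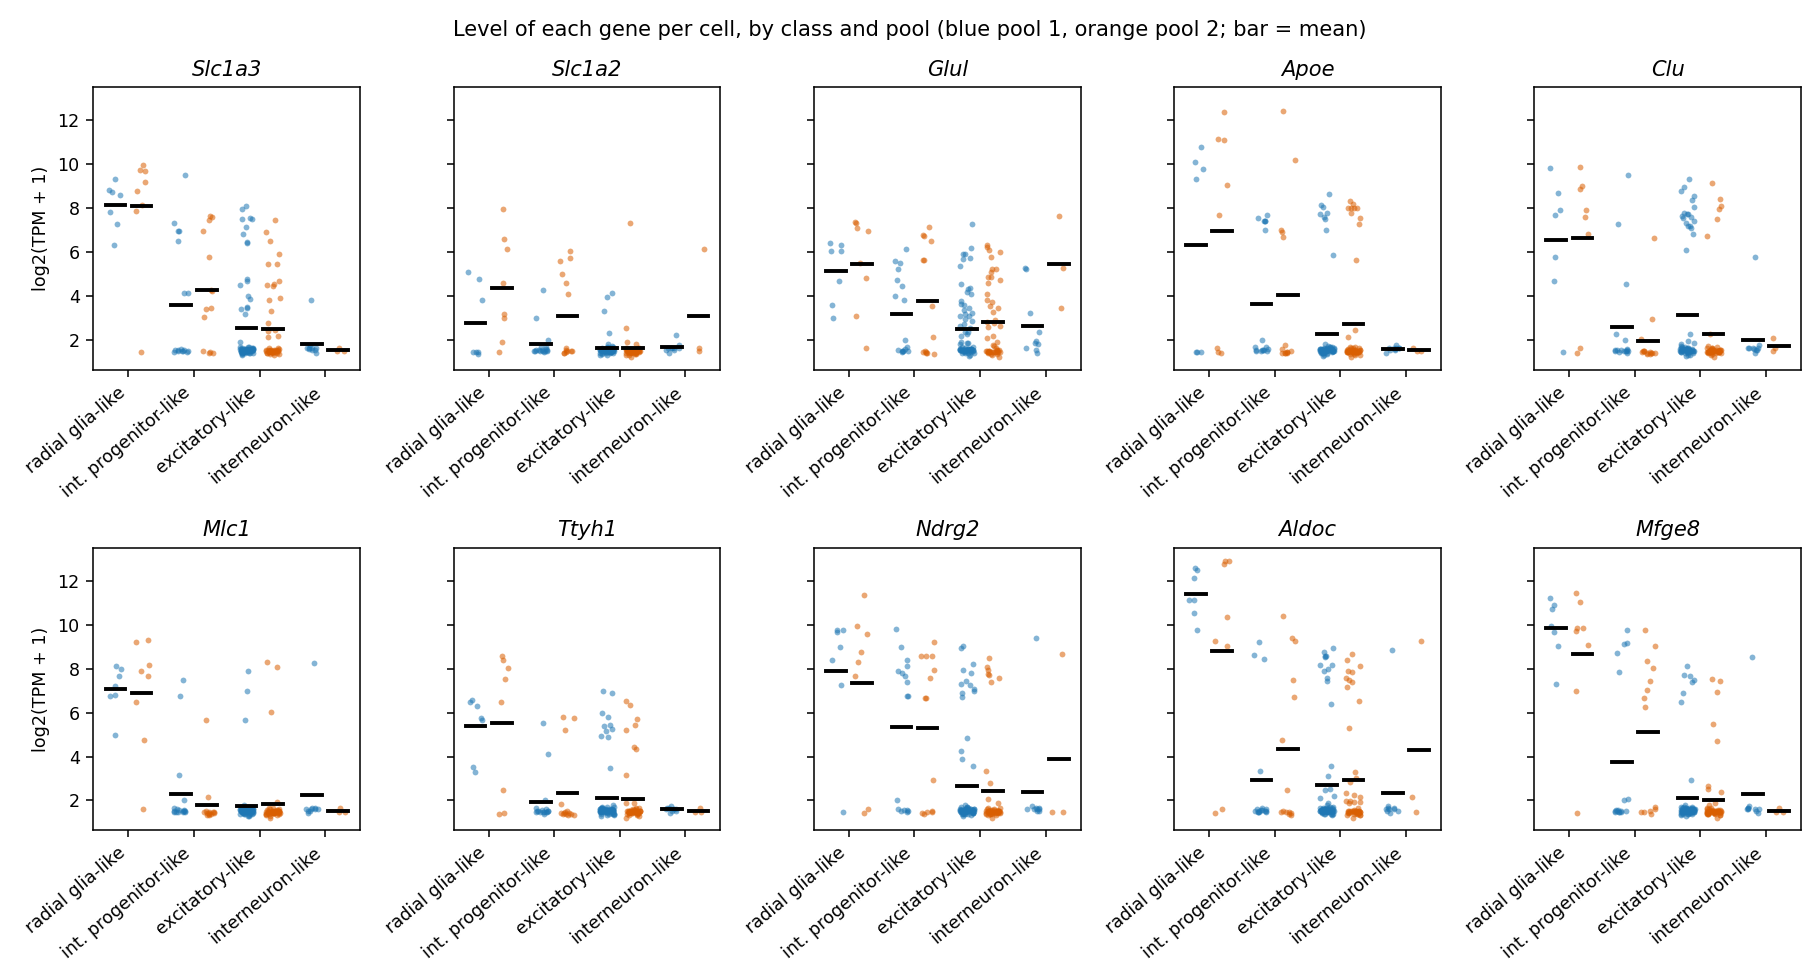
Level of each gene as log2(TPM + 1) (y axis) in single cells of the 4 classes (x axis), pool 1 in blue and pool 2 in orange, with the mean as a bar. Points near 1.5 lie at the floor of their cell. The means of radial glia-like cells stand above those of excitatory neuron-like cells for all 10 genes, least for Slc1a2, whose median there is 7.97 TPM.

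The glutamate transporter Slc1a3 was the highest of the 3 genes of glutamate handling. In radial glia-like cells it ranged from 77.8 to 629 TPM in pool 1 (median 387) and from 1.72 to 999 TPM in pool 2 (median 506). It was thus above the floor in 14 of 15 cells, and the exception was a pool 2 cell that also had Mfge8, Aldoc and Ndrg2 at the floor. That cell carried 5 interneuron markers beside 7 radial glia markers. Of 126 excitatory neuron-like cells 38 had Slc1a3 above the floor, the highest at 272 TPM, so the radial glia-like and excitatory neuron-like classes overlapped cell by cell. The difference was 5.61 ± 0.53 (log2, SE, n = 2 pools; limma adjusted p = 0.00573), and it was 5.60 in pool 1 and 5.62 in pool 2. Intermediate progenitor-like cells lay between, with Slc1a3 above the floor in 17 of 31 cells and up to 725 TPM.

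Slc1a2, which takes over glutamate clearance in the mature forebrain, was the weakest of the 10. In radial glia-like cells it ran from 1.60 to 32.9 TPM in pool 1 (median 1.75) and from 1.72 to 249 TPM in pool 2 (median 15.4). It was above the floor in 3 of 7 cells of pool 1 and 7 of 8 of pool 2. Outside, it was above the floor in 7 of 126 excitatory neuron-like cells, 2 of 13 interneuron-like cells and 10 of 31 intermediate progenitor-like cells, 8 of these 10 in pool 2. The difference from excitatory neuron-like cells was 1.93 ± 0.61 (limma adjusted p = 0.122), 1.14 in pool 1 and 2.72 in pool 2. With 1 value per pool, the gap between pools was not tested.

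Glul was widespread. It ranged from 7.07 to 82.7 TPM in the radial glia-like cells of pool 1 (median 64.9) and from 2.05 to 162 TPM in those of pool 2 (median 82.6), and only 1 of the 15 cells had it at the floor. It was also above the floor in 61 of 126 excitatory neuron-like cells and 10 of 13 interneuron-like cells, and the highest cell of the table, at 214 TPM, was unassigned. Radial glia-like cells held 22.2% of its summed TPM after the floor of each cell was subtracted, the lowest share among the 10 genes. The difference from excitatory neuron-like cells was 2.66 ± 0.52 (limma adjusted p = 0.0358), and this call was lost in 7 of 20 alternative settings.

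Within the radial glia-like class Apoe was either high or not detected. In pool 1 it ran from 1.71 to 1742 TPM in radial glia-like cells (median 634), and in pool 2 from 1.61 to 5266 TPM (median 367). Detected values began at 206 TPM, and 6 of the 15 cells lay at the floor. Such a gap was not particular to Apoe. Detected values began at 513 TPM for Aldoc (13 of 15 cells) and at 150 TPM for Ndrg2 (12 of 15 cells). The 9 cells with Apoe had 8 or 9 of the other 9 genes, and the 6 cells without it had 3 to 8 of them. Among excitatory neuron-like cells 26 of 126 had Apoe, from 2.03 to 399 TPM and 19 of them at 10 TPM or more, and among the 13 interneuron-like cells 0 had it, which allows a share of up to 24.7% (exact binomial). The log2 difference from excitatory neuron-like cells was 4.17 ± 0.54 (limma adjusted p = 0.0109). The highest Apoe value of all, 5531 TPM, was in an intermediate progenitor-like cell of pool 2 with all 8 microglia markers above the floor (21354 TPM in sum) and 5 of 6 oligodendrocyte precursor markers. It was also one of the 4 intermediate progenitor-like cells with at least 8 of the 10 genes. Without it the mean of the class in pool 2 was 116.4 TPM in place of 503.

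Clu ranged from 1.71 to 913 TPM in the radial glia-like cells of pool 1 (median 203) and from 1.61 to 924 TPM in those of pool 2 (median 216), with 12 of 15 above the floor. It was not restricted to progenitors: of the 44 cells at 100 TPM or more, 24 were excitatory neuron-like, 10 radial glia-like and 2 intermediate progenitor-like, and the highest cell (1102 TPM) was unassigned. Intermediate progenitor-like cells had it in 7 of 31 and excitatory neuron-like cells in 31 of 126. The difference from excitatory neuron-like cells was 3.90 ± 0.55 (limma adjusted p = 0.0143).

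Of the membrane proteins, Mlc1 was the gene with the fewest cells outside radial glia. Its levels were 30.7 to 279 TPM in the radial glia-like cells of pool 1 (median 145) and 2.05 to 621 TPM in pool 2 (median 217). It was detected in 14 of these 15 cells and in 8.74% of all other cells, among them 7 of 126 excitatory neuron-like and 5 of 31 intermediate progenitor-like cells. The log2 difference from excitatory neuron-like cells was 5.19 ± 0.50 (limma adjusted p = 0.00573). Ttyh1 was lower, at 8.84 to 94.2 TPM in pool 1 (median 52.4) and 1.61 to 383 TPM in pool 2 (median 135), and differed by 3.36 ± 0.47 (limma adjusted p = 0.0143). All 13 interneuron-like cells had Ttyh1 at the floor.

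Aldoc reached the highest levels. In radial glia-like cells it ranged from 856 to 6096 TPM in pool 1 (median 2256) and from 1.72 to 7698 TPM in pool 2 (median 967). The 2 cells at the floor both belonged to pool 2. With the floor of each cell subtracted, these 15 cells held 76.1% of the summed Aldoc of the table. Even so, Aldoc was above the floor in 47 of 126 excitatory neuron-like cells. Of the 52 cells at 100 TPM or more, 20 were excitatory neuron-like, 13 radial glia-like and 8 intermediate progenitor-like, and the highest excitatory neuron-like cell reached 494 TPM. The difference was 7.28 ± 0.86 (limma adjusted p = 0.00845), 8.69 in pool 1 and 5.86 in pool 2.

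Mfge8 was second in level, from 157 to 2407 TPM in pool 1 (median 965) and from 1.72 to 2737 TPM in pool 2 (median 876). Detection was made in 14 of 15 radial glia-like cells against 22 of 126 excitatory neuron-like ones, and the classes differed by 7.18 ± 0.65 (limma adjusted p = 0.00573). Ndrg2 ranged from 1.74 to 863 TPM in pool 1 (median 511) and from 1.72 to 2646 TPM in pool 2 (median 375), and differed by 5.08 ± 0.51 (limma adjusted p = 0.00573).

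Ordered by the median TPM over the 15 radial glia-like cells, Aldoc (2224) was followed by Mfge8 (914), Apoe (529), Ndrg2 (435), Slc1a3 (421), Clu (203), Mlc1 (201), Ttyh1 (77.9), Glul (64.9) and Slc1a2 (7.97). The cell-to-cell ranges of all neighbours in this order overlapped. The order differed by pool: in pool 2 the median of Slc1a3 lay above those of Ndrg2 and Apoe and that of Mlc1 above that of Clu, and in pool 1 that of Glul lay above that of Ttyh1.

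**Figure D3:**
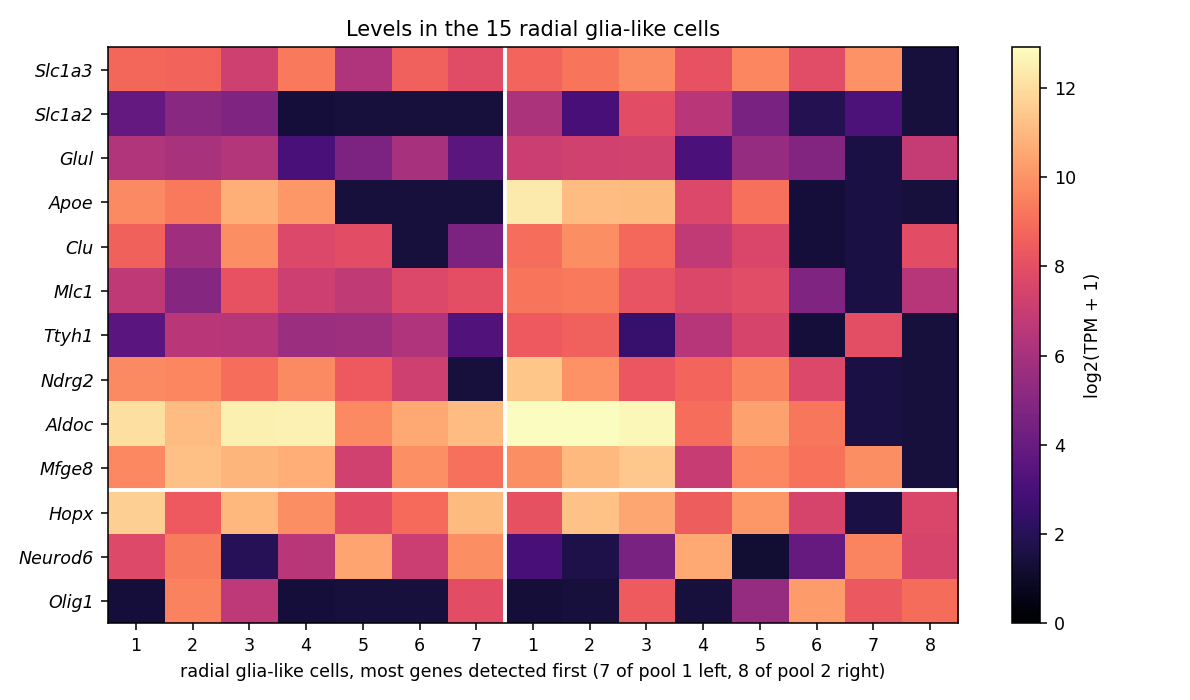
Colour gives log2(TPM + 1) of the 10 genes (upper rows) and of Hopx, Neurod6 and Olig1 (lower rows) in each radial glia-like cell (columns, 7 of pool 1 left and 8 of pool 2 right, most genes detected first). Apoe and Slc1a2 are most often at the floor (6 and 5 of 15 cells), and the last 2 cells of pool 2 have 4 and 3 of the 10 genes.

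Radial glia-like cells differed among themselves. The 8 cells with Neurod6 at 100 TPM or more had a median of 7.5 of the 10 genes (range 3 to 10), and the 7 cells under that level had a median of 10 (range 7 to 10). Cells with at least 5 of 10 cell cycle genes (8 cells) had a median of 9.5 and the remaining 7 a median of 10. Cell names carry a letter A or B of unstated meaning: the 11 cells with A had a median of 10 genes and the 4 with B a median of 7. No test was made on these subsets. Without the 8 cells with Neurod6, which left 2 radial glia-like cells in pool 1 and 5 in pool 2, 8 of the 10 genes were called against excitatory neuron-like cells, and the median difference was 6.07 in place of 4.62.

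Markers of other cell types were counted in the radial glia-like cells. At least 3 microglia, endothelial, mural and meningeal, or choroid plexus and ependymal markers were found in 0 of the 15 cells, and endothelial and mural markers were at the floor in all of them. The summed level of the 8 microglia markers was 10.98 to 31.9 TPM. Of 6 oligodendrocyte precursor markers at least 1 was detected in 9 of the 15 cells and at most 2 (sum 9.13 to 1714 TPM, median 64.9), against 20 of 126 excitatory neuron-like cells (sum 7.99 to 351 TPM, median 11.2). Of 4 red blood cell markers at least 1 was detected in 5 of the 15 cells (sum 5.49 to 4519 TPM, median 6.82), against 44 of 126 excitatory neuron-like cells (sum 5.33 to 3908 TPM, median 7.87). The part of these markers in the differences was not tested.

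Against intermediate progenitor-like cells, 6 of the 10 genes were called higher in radial glia-like cells, where 0.252% of all genes were called and 0.187% higher and 0.0653% lower. These 6 were Aldoc (log2 difference 6.47 ± 0.86), Mlc1 (4.93 ± 0.50), Mfge8 (4.81 ± 0.65), Clu (4.34 ± 0.55), Slc1a3 (4.20 ± 0.53) and Ttyh1 (3.32 ± 0.47), with limma adjusted p between 0.0237 for Mlc1 and 0.0374 for Aldoc. Apoe (2.81 ± 0.54, adjusted p = 0.0727), Ndrg2 (2.30 ± 0.51, adjusted p = 0.0979), Glul (1.85 ± 0.52, adjusted p = 0.153) and Slc1a2 (1.12 ± 0.61, adjusted p = 0.394) were not called. The comparison shares its radial glia-like profiles with the previous one. Its calls were fragile: 0 of the 10 genes were called without either intermediate progenitor-like profile or without the Neurod6 cells, 1 was called with the interneuron-like class in the same fit, and 9 and 8 were called without the radial glia-like profile of pool 1 and of pool 2.

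Ndrg2 and Mfge8 were also found in many intermediate progenitor-like cells. Ndrg2 was above the floor in 19 of these 31 cells, up to 891 TPM in pool 1 (median 106.6) and 588 TPM in pool 2 (median 100), against 29 of 126 excitatory neuron-like cells. Mfge8 was above the floor in 16 of 31, up to 865 TPM. The log2 difference of the intermediate progenitor-like from the excitatory neuron-like class was 2.77 ± 0.51 for Ndrg2 (limma adjusted p = 0.520) and 2.37 ± 0.65 for Mfge8 (limma adjusted p = 0.592). In this comparison, added after the levels were seen, limma called 0 of the 10 and 0 of 10717 genes (background 0%), while 4 of the 10 and 756 of 10717 had an unadjusted p below 0.05. By the other scalings tried, 1 of the 10 was called from the log of the mean TPM and 2 with profiles weighted by cells.

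Against interneuron-like cells, 8 of the 10 genes were called higher, where 4.85% of all genes were called and 3.77% higher and 1.08% lower. Pool 2 had only 3 interneuron-like cells. Among the largest differences were Mfge8 (7.33 ± 0.75, limma adjusted p = 0.00283), Aldoc (6.77 ± 1.01, adjusted p = 0.00847) and Slc1a3 (6.43 ± 0.63, adjusted p = 0.00266). Not called were Glul (1.27 ± 0.88, adjusted p = 0.423), with a difference of 2.53 in pool 1 and 0.01 in pool 2, and Slc1a2 (1.18 ± 0.70, adjusted p = 0.344). Leaving out either interneuron-like profile left the count at 8. The letter in the cell names differed between these classes, with B in 11 of 13 interneuron-like and 4 of 15 radial glia-like cells, and its part in the result was not tested.

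**Figure D4:**
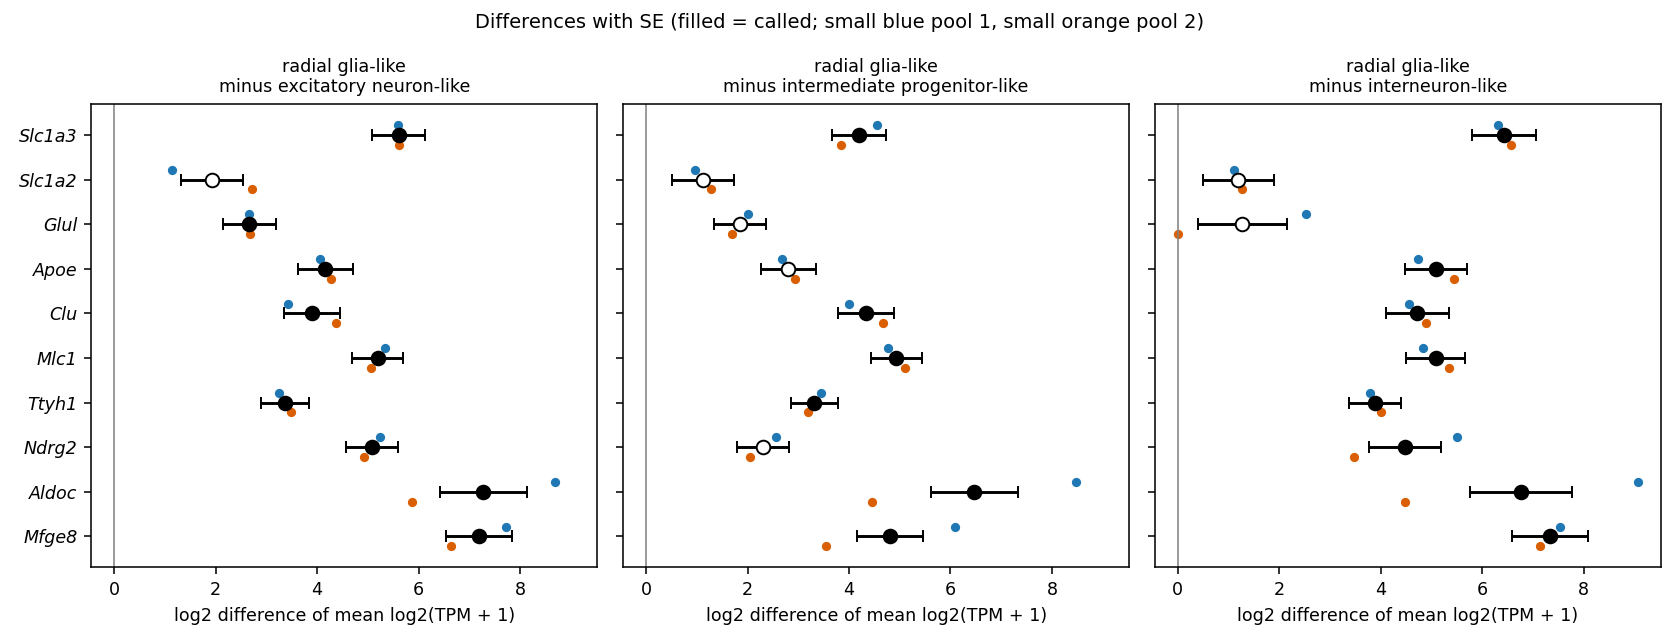
Log2 difference (x axis) of each gene (y axis) between radial glia-like cells and the class named above each panel, with SE; filled circles were called, and small points give pool 1 (blue) and pool 2 (orange). Aldoc and Mfge8 stand farthest to the right in the left panel, at 7.28 and 7.18, and Slc1a2 is open in all panels.

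Other genes of the same pathways were counted from lists, and with lists this short a count of 0 lies near the 2.02% called higher over all genes. Of 11 genes of glutamate and glutamine handling that could be tested, 0 were higher and 1 was lower in radial glia-like cells when set against excitatory neuron-like ones: Asns, asparagine synthetase, which uses glutamine as its nitrogen donor, fell by 1.85 ± 0.35 (limma adjusted p = 0.0335). The median difference of this list was -0.47, and 3 of its genes had an unadjusted p below 0.05, as did 2278 of all 10717 genes. Of 12 genes of lipoprotein and cholesterol transport, 0 were called in either direction (0 also at an unadjusted p below 0.05), with a median difference of 0.06. Of 6 phagocytic bridging proteins and receptors by the same limma fit, 0 were called and 3 had an unadjusted p below 0.05, with a median difference of 0.68. Against intermediate progenitor-like cells none of these 3 lists had a call by limma, with 4, 1 and 2 genes at an unadjusted p below 0.05, beside 1762 of all 10717. Against interneuron-like cells Elmo1, an engulfment adaptor named after its value was seen, was lower (-2.75 ± 0.60, limma adjusted p = 0.0316).

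Relatives of the 10 genes were counted in the same way. Of 8 paralogs tested against excitatory neuron-like cells, 0 were called higher and 1 lower, Ndrg4 (-2.85 ± 0.56, limma adjusted p = 0.0365). Over all genes 2.02% were called higher and 0.942% lower, so a count of 0 higher lies near that share. An unadjusted limma p below 0.05 was found for 4 of the 8, beside 2278 of all 10717 genes. Ndrg3 differed by -3.01 ± 0.70 (limma adjusted p = 0.0579) and Ndrg1 by -1.58 ± 0.79, beside 5.08 for Ndrg2. Aldoa, the widely expressed aldolase, differed by 1.72 ± 0.45 (limma adjusted p = 0.0758), beside 7.28 for Aldoc, and was called only against interneuron-like cells (4.26 ± 0.64, limma adjusted p = 0.00908). The remaining paralogs were not called: the neuronal glutamate transporter Slc1a1 differed by -0.59 ± 0.35, the neutral amino acid transporter Slc1a4 by 0.93 ± 0.39, Ttyh3 by 0.78 ± 0.56 and the Mfge8 relative Edil3 by -0.62 ± 0.49. Slc1a5, Slc1a6 and Ttyh2 were detected in too few cells to be tested.

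Of 17 other astrocyte genes that could be tested, 9 were higher and 0 lower in the radial glia-like class against the excitatory neuron-like one, with a median difference of 2.22. The largest were Acsbg1, an acyl-CoA synthetase (4.23 ± 0.51), the sphingosine phosphate receptor S1pr1 (4.09 ± 0.52), the lipid phosphatase Ppap2b (3.69 ± 0.61) and the thyroid hormone transporter Slco1c1 (3.26 ± 0.57), with limma adjusted p between 0.00911 and 0.0266. Against intermediate progenitor-like cells 2 of the 17 were higher, Acsbg1 (3.51 ± 0.51) and S1pr1 (3.43 ± 0.52), and against interneuron-like cells 9 were higher.

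Co-variation was described among the 69 cells with Slc1a3 of at least 10 TPM, 36 in pool 1 and 33 in pool 2. Just inside this limit lay cells at 10.1, 10.2 and 12.9 TPM and just outside cells at 9.85, 9.55 and 9.52 TPM. The 69 cells were 14 radial glia-like, 14 intermediate progenitor-like, 28 excitatory neuron-like, 1 interneuron-like and 12 unassigned, so they share class as well as pool. Pearson r of log2(TPM + 1) was positive for all 45 pairs of genes in both pools, with a median of 0.485 in pool 1 (0.262 to 0.752) and 0.512 in pool 2 (0.137 to 0.696). By Spearman's rho 43 and 44 of the 45 pairs were positive, with lowest values of -0.15 and -0.02. Mlc1 and Mfge8 (0.752 and 0.577), Aldoc and Mfge8 (0.642 and 0.648) and Mlc1 and Aldoc (0.631 and 0.627) were the closest pairs by the mean of the pools. Slc1a2 and Glul were the least close (0.404 and 0.137). Many of these values rest on few cells above the floor. Of the 36 and 33 cells, Slc1a2 was detected in 5 and 14, Apoe in 10 and 19 and Mlc1 in 13 and 9.

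**Figure D5:**
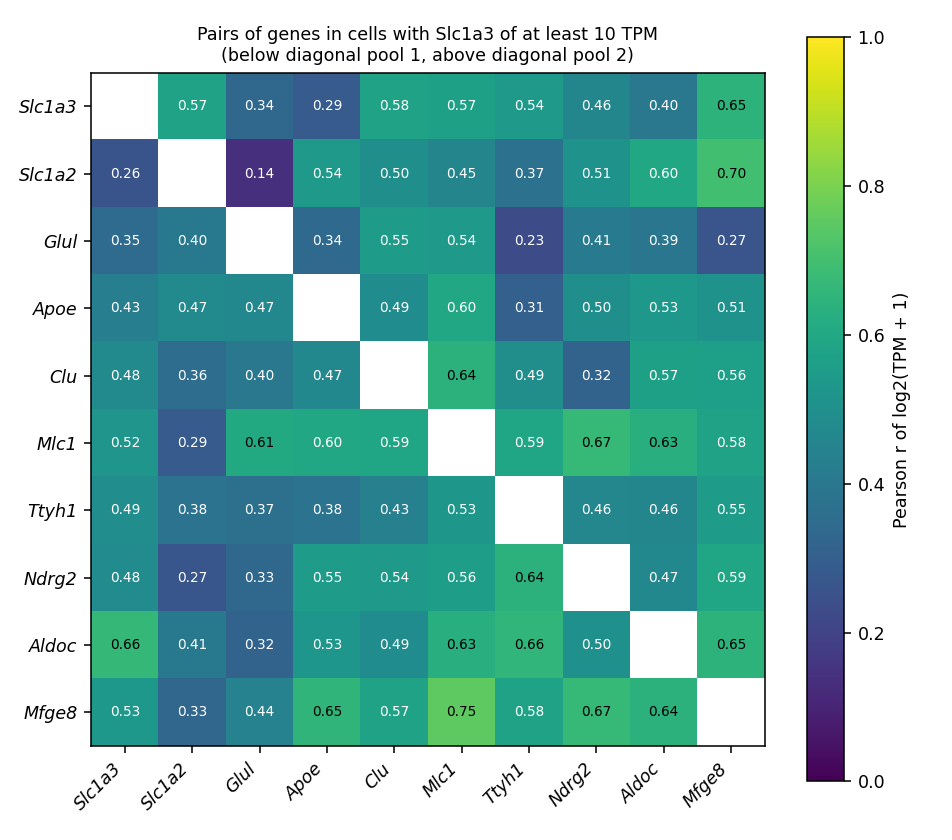
Pearson r of log2(TPM + 1) for each pair of genes (rows and columns) in cells with Slc1a3 of at least 10 TPM, pool 1 (36 cells) below the diagonal and pool 2 (33 cells) above it. Mlc1 and Mfge8 form the highest pair in pool 1 (0.752), and the lowest value is Slc1a2 with Glul in pool 2 (0.137).

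Values were also taken by class. Without the radial glia-like cells the median r was 0.318 in pool 1 (29 cells) and 0.235 in pool 2 (26 cells), and 40 of 45 pairs were positive in each. Within the radial glia-like cells alone it was 0.268 in pool 1 (7 cells, 31 of 45 pairs positive) and 0.522 in pool 2 (8 cells, 41 of 45 positive). Mlc1 and Aldoc fell to 0.263 and 0.082 without radial glia-like cells, while Aldoc and Mfge8 were at 0.378 and 0.509. Over all cells the mean level of the 10 genes had an r with the number of genes detected of 0.330 in pool 1 and 0.322 in pool 2. Taking the number of genes detected out of each gene left medians of 0.475 and 0.500.

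The genes most like the mean level of the 10 across all cells of each pool, ranked by the mean of the r values of the pools among 9050 genes detected in at least 22 cells, were S1pr1 (0.737 in pool 1 and 0.736 in pool 2), the mRNA decay factor Zfp36l1 (0.737 and 0.677), the receptor Notch1 (0.664 and 0.721), the matrix protein Tnc (0.649 and 0.733), the serine synthesis enzyme Phgdh (0.611 and 0.727), cystathionine beta-synthase Cbs (0.627 and 0.710), Sox9 (0.718 and 0.620), which is also one of the class markers, and the homeodomain protein Hopx (0.628 and 0.684). The median r over all genes compared was 0.015 and 0.006. Hopx was detected in 14 of 15 radial glia-like cells, from 248 to 3123 TPM in pool 1 (median 919) and from 2.05 to 2486 TPM in pool 2 (median 313). Neurod6 ran the other way, with an r of -0.20 in pool 1 and -0.51 in pool 2.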

How the data were processed

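Gene expression was measured in 221 single cells, 99 of them from pool 2 and the rest from pool 1. The authors deposited TPM values, and the submitters' processing notes name Bowtie2 2.2.6, TopHat2 2.0.14, Cufflinks 2.2.1 and the build mm10. Reads per cell are not given in the sources used here, so depth is unknown and no count model was used. Doublets were not called, and no cell was removed.

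Classes came from marker lists: intermediate progenitor-like cells, set first, had Eomes and at least 3 markers of that class. The other classes needed at least 4 of 8 markers and a lead of 2. The 31 class markers and 92 spike-in controls were left out of the tests. Levels were averaged as log2(TPM + 1) per class and pool (at least 4 cells) and compared with limma 3.58.1 in R 4.3.3 (trended, robust), over 10717 genes detected in at least 10 cells. The intended minimum of 4 cells left out the interneuron-like class, so its comparison came from a fit with a minimum of 3 cells added after the data were seen. Cells of a class in a pool are not replicates. The script was tested on simulated profiles, with genes changed in the radial glia-like class and compared with the excitatory neuron-like one. It recovered 23 of 100 genes changed by a log2 of 2 and 66 of 100 changed by 4, with 1 false call. A gene not called can thus have changed by such an amount. Pairing of classes by pool comes from the labels, since both classes of a pair were taken from the same animals. A fit with the pool as block gave the same numbers of calls among the 10 genes.

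The 10 genes, the lists and the tests were chosen with earlier results of these data known. Named were all 10 genes, their paralogs, up to 4 called genes per list with the largest difference, and the 8 most alike genes by r. Btg2 and Aqp4 were not analysed here, and a list of genes of ion and volume control is not reported here. Alternatives were the pseudocount, filter, scale of the mean, weights, class rule (clusters, stricter lead, 10 TPM), units and omitted cells or profiles. Promoters and motifs were read from RefSeq, gene spans from GENCODE. The tools were Python 3.11.15, numpy 2.4.6, pandas 2.3.3 and scipy 1.17.1.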

Additional observations from a re-analysis of the deposited data

Results flagged for a closer look

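Of 28 groups of 4 to 10 cells examined (one gene in one class and pool), 10 held a cell far from the others on the log2 scale, and chance marks about 1 in 20 groups. Among radial glia-like cells these were the lowest cells: in pool 2 Slc1a3 at 1.72 TPM (next cell 235 TPM) and Mfge8 at 1.72 TPM (next 126 TPM), both in the cell with 3 of the 10 genes, and in pool 1 Ndrg2 at 1.74 TPM (next 150 TPM). The cell with 3 of the 10 genes also carried 5 interneuron markers beside 7 radial glia markers.

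The other 7 were the highest cells among the 10 interneuron-like cells of pool 1, where the remaining cells lay near the floor: Slc1a3 at 12.9 TPM, Slc1a2 at 3.73 TPM, Clu at 53.8 TPM, Mlc1 at 306 TPM, Ndrg2 at 667 TPM, Aldoc at 466.3 TPM and Mfge8 at 370 TPM. Where a gene is at the floor in all but 1 cell, any detected value stands apart in this way.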

How the results depend on the processing

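Every difference of the 10 genes kept its direction, where it was called, under every alternative run. With each profile left out in turn, the number of the 10 genes called ranged from 0 to 10 against excitatory neuron-like cells and from 0 to 9 against intermediate progenitor-like cells, and was 8 throughout against interneuron-like cells. The lone profile of a class is then assumed to vary like the other classes. In the comparison with intermediate progenitor-like cells, 1 of the 10 genes was called with a minimum of 3 cells, 1 with the log2 of the mean TPM and 0 after removal of cells with Neurod6, in place of 6. For the intermediate progenitor-like against the excitatory neuron-like class, 1 gene was called with the log2 of the mean and 2 with weights by cells, in place of 0. With the pool as a replicate block the counts among the 10 genes were 9, 6, 8 and 0, as without it, and the genes called in the whole table were 440, 75, 442 and 0, in place of 318, 27, 520 and 0.

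The counts over the whole table moved more. Against excitatory neuron-like cells they were 136 with a minimum of 3 cells, 148 without Neurod6 cells, 199 by clusters, 209 with markers at 10 TPM, 534 with weights, 1358 and 1266 without a radial glia-like profile and 0 without an excitatory neuron-like one. Against intermediate progenitor-like cells they ranged from 0 to 916. A stricter lead of 3 markers left no interneuron-like value.

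The median r over the 45 pairs, 0.498 as the mean of both pools, was 0.464 at 50 TPM of Slc1a3, 0.479 above the floor, 0.388 by Spearman, 0.395 in radial glia-like cells only and 0.277 without them. The causes of these shifts were not tested. The number of pools, 2, limits the precision of every difference, and a share at the floor in 13 or 15 cells is known only within wide limits.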
